A study of Homo sapiens with 15 samples.

Results

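Ephrins are membrane-bound ligands, and Eph proteins are the receptor tyrosine kinases that bind them on a neighbouring cell. The A-type ephrins are held to the membrane by a lipid anchor and mainly bind EphA receptors, whereas the B-type ephrins cross the membrane and mainly bind EphB receptors. Binding can signal into both cells, and the family is best known for setting contact, repulsion and boundaries between cells, including tumour cells and fibroblasts. The mRNA of 10 genes of this family was followed here, namely the ephrins EFNA1, EFNA3, EFNA4, EFNA5, EFNB1 and EFNB2 and the receptors EPHA2, EPHB2, EPHB3 and EPHB4. The genes were listed by name, with earlier results of these data known, and were looked up in both deposited gene tables. All 10 were rows of the MRC5 table, which holds 16382 genes, and of the H196 table, which holds 16076 genes, out of 17138 genes in the tables together.

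MRC5, a fibroblast line from human lung, was grown alone (MRC5_Mo), across a transwell membrane from H69 cells (MRC5_coH69) or across it from H196 cells (MRC5_coH196). H69 is a neuroendocrine (NE) line of small cell lung cancer (SCLC), and H196 is a non-NE SCLC line. H196 cells were in turn kept in mono-culture (H196_Mo) or across from MRC5 fibroblasts (H196_Co), and each of the 5 groups has 3 libraries, 15 in all. A membrane separated the lines, so the model leaves out the direct contact between cells at which ephrins and Eph receptors usually meet. Each line stands for 1 source of cells, H69 itself was not sequenced, and the labels do not say that the libraries of a group came from separate cultures, so the p-values measure the spread between these libraries, which may be technical.

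Library totals ran from 16073597 to 19170560 counts. The 10 fibroblast markers, among them COL1A1, DCN and PDGFRB, were all at 1 CPM (count per 1000000 counts of the library) or more in every MRC5 library, with summed levels of 33810 to 37490 CPM in MRC5_Mo, 38390 to 39200 CPM in MRC5_coH69 and 20750 to 21690 CPM in MRC5_coH196. In the H196 libraries that sum was 2.61 to 3.804 CPM. The 10 NE markers summed to 0.646 to 1.497 CPM over the MRC5 libraries. In H196_Mo they summed to 65.8 to 69.4 CPM and in H196_Co to 65.3 to 70.03 CPM, with 3 of the 10 at 1 CPM or more in every library. The 5 endothelial markers summed to 27.1 to 29.9 CPM in MRC5_Mo, 34.2 to 35.9 CPM in MRC5_coH69 and 41.5 to 42.3 CPM in MRC5_coH196, nearly all of it TEK, while PECAM1 and CDH5 were at 0.0565 CPM or less. The 6 epithelial markers summed to 126 to 133, 151 to 168 and 131 to 139.5 CPM in the same groups. Their sum was 213 to 221.5 CPM in H196_Mo and 245 to 274 CPM in H196_Co. Over the MRC5 libraries KRT18 was at 58.1 to 117 CPM, KRT8 at 18.5 to 31.5 CPM and KRT19 at 21.1 to 41.6 CPM. Over the H196 libraries KRT18 was at 178 to 229 CPM, KRT8 at 32.1 to 46.5 CPM and KRT19 at 0.348 CPM or less. CDH1 was at 0.0523 CPM or less in MRC5 and 0.238 CPM or less in H196. 95 genes taken as markers of H196 RNA (20 CPM or more in each library of H196, below 0.5 CPM in each of MRC5_Mo) summed to 8.97 to 9.92 CPM in MRC5_Mo, 8.36 to 10.4 CPM in MRC5_coH69 and 23.7 to 61.8 CPM in MRC5_coH196, against 7805 to 7997 CPM in H196_Co. Conversely, 142 genes marking MRC5 RNA summed to 13.5 to 15.02 CPM in H196_Mo and 17.2 to 19.01 CPM in H196_Co, against 35610 CPM or more in every MRC5 library. The part of these markers in the results below was not tested, apart from the values given for EFNA3 and EFNA1.

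EFNA4, EFNA3 and EFNA1 lie in that order on the plus strand of chromosome 1, within 71479 bases. In the coordinates of the files (GRCh38.p13) EFNA4 spans chr1:155063740-155078610, EFNA3 spans chr1:155078837-155087538 and EFNA1 spans chr1:155127876-155135218. EFNA4 thus ends 227 bases before EFNA3 starts, and EFNA1 starts 40338 bases after the end of EFNA3. RefSeq also lists read-through genes named EFNA4-EFNA3 and ADAM15-EFNA4, for which the tables have no row. How reads of such read-through transcripts were counted is not given in the sources used here. The bases upstream of EFNA4 and EFNA3 are shown because both neighbours were called higher in H196_Co, whereas EFNA3 without EFNA4 was called in MRC5_coH196. They are read 5′ to 3′ on the plus strand from the RefSeq promoter table (GRCh38.p14), up to the last base before the start site, at chr1:155063490-155063739 for EFNA4 and chr1:155078611-155078836 for EFNA3. For EFNA3, the first 24 bases of the 250-base window lie inside EFNA4 and were left out. Capitals mark matches to ACGTG or GCGTG, the core letters to which hypoxia-inducible factors bind, on either strand, so that CACGC is GCGTG on the other strand.
EFNA4: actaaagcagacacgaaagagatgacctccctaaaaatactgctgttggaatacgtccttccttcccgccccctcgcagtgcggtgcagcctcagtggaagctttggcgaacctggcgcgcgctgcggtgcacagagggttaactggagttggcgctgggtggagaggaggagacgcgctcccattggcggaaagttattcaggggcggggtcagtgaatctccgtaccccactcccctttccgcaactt
EFNA3: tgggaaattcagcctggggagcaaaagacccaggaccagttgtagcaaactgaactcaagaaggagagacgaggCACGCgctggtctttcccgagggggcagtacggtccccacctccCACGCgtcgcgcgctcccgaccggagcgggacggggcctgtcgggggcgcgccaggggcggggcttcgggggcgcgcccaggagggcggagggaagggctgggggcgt
EFNA3 holds 2 matches to GCGTG on the minus strand, whose first bases lie at -152 and -108 from its start site, and EFNA4 holds none. All 10 genes were matched in the promoter table. GCGTG was found before 8 of them, all but EFNA4 and EPHB3, and ACGTG before 0 of them. Of all 35116 promoters in the table, 32.22% hold GCGTG, 18.51% hold ACGTG and 43.21% hold either in their 250 upstream bases. The windows of the 10 genes were 58.4% to 84.8% G or C, and the shares over all promoters were not matched for this. A match describes the letters only. In the annotation of the files, EFNA3 belongs to the Hallmark sets Glycolysis and Hypoxia, and EFNA1 to Hypoxia and to TNFA signaling via NFKB.

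Grown alone, the fibroblasts and the tumour cells both carried EPHA2, EPHB4 and, at a lower level, EFNA4, and stood further apart in the other members. The level of each gene is given in FPKM (fragments per kilobase of gene, scaled to the mapped fragments of the library), which allows genes of different length to be set side by side. Both tables were made separately, so levels in MRC5 and in H196 are given next to each other with no test. MRC5_Mo held mostly EPHB2 (47.6 ± 3.87 FPKM, SD, n = 3), EPHA2 (33.7 ± 2.76 FPKM), EFNB1 (22.3 ± 1.12 FPKM) and EPHB4 (17.9 ± 0.381 FPKM). H196_Mo held mostly EPHA2 (52.5 ± 1.53 FPKM), EPHB4 (20.6 ± 1.73 FPKM) and EFNA1 (12.8 ± 0.914 FPKM), with EPHB2 at 2.34 ± 0.151 FPKM and EFNB1 at 2.51 ± 0.247 FPKM. EFNA4 was at 4.77 ± 0.768 FPKM in MRC5_Mo and 6.30 ± 0.410 FPKM in H196_Mo. EFNA1, a ligand of EPHA2, was at 0.127 ± 0.0850 FPKM in MRC5_Mo. In MRC5 cells the B-type ligands therefore summed to more FPKM than the A-type ligands, whereas in H196 cells the order was the opposite.

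**Figure D1:**
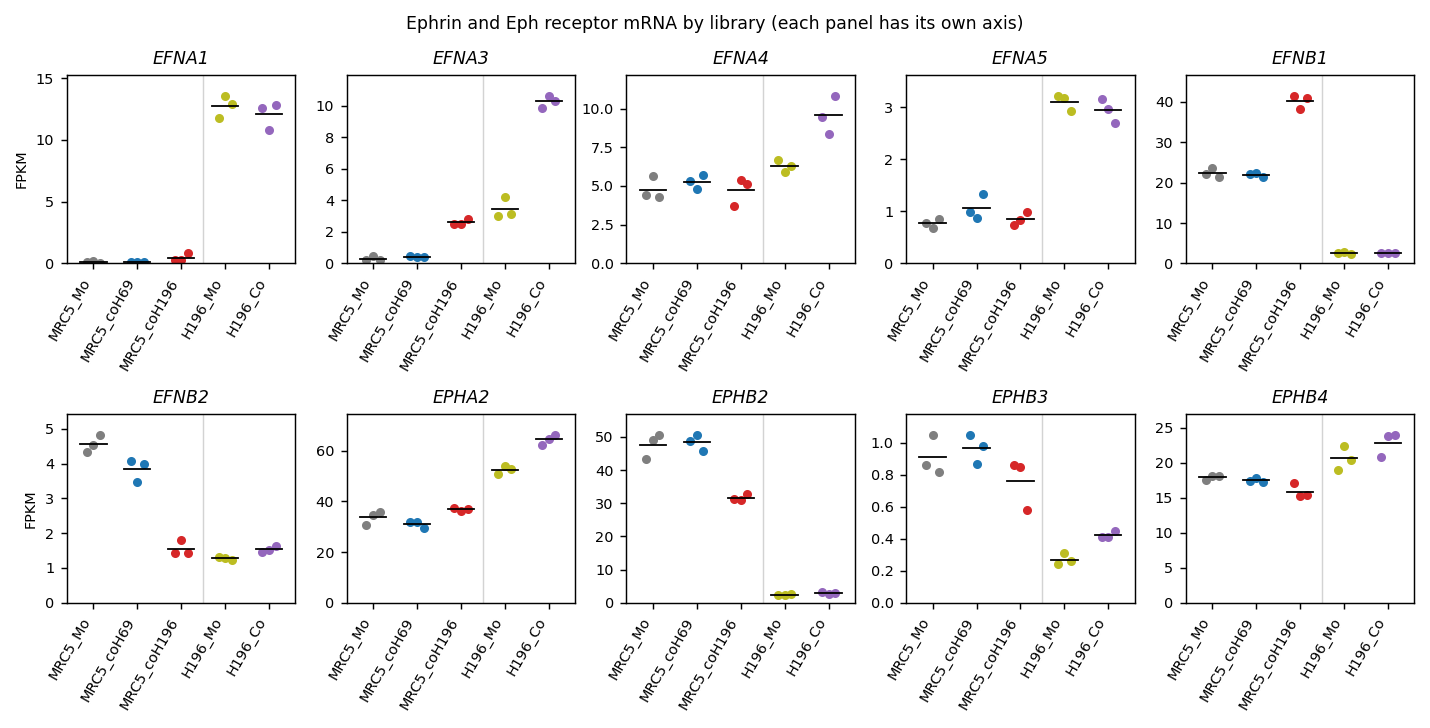
Level of each of the 10 genes in FPKM (vertical axis, linear from 0, a different range in each panel) in the 5 groups (horizontal axis), with 1 point for each library and a bar at the mean of 3 libraries. EFNA3 is highest in H196_Co at 9.85 to 10.64 FPKM, EFNB1 is highest in MRC5_coH196 at 38.35 to 41.57 FPKM, and EFNB2 is highest in MRC5_Mo at 4.33 to 4.83 FPKM.

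The first comparison asked how the fibroblasts differed between culture with H196 cells and culture alone. A gene passed when its Benjamini-Hochberg adjusted p from edgeR's quasi-likelihood test was under 0.05 over all 12819 genes tested, and it was a differentially expressed gene (DEG) when its absolute log2 fold change was also above 0.58. In MRC5_coH196, EFNA3 and EFNB1 rose and EFNB2 fell. EFNA3 was 9.99 times and EFNB1 2.04 times its level in MRC5_Mo, and EFNB2 was 0.386 times its level. EPHA2 rose and EPHB2 fell by less than the limit for a DEG. 9 of the 10 genes passed the filter on low counts, all but EFNA1, and 2 of these 9 were DEGs with higher and 1 with lower mRNA in MRC5_coH196, against 17.2% and 14.7% of all genes tested. 5 of the 9 passed the test (55.6%), and 74.3% of all genes tested did so. The 9 genes had a median log2 fold change of 0.14, beside -0.00 over all genes. In bulk libraries, fewer cells of a type and less RNA per cell cannot be told apart.

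EFNA3 encodes an A-type ephrin. It had 6, 13 and 6 counts in the 3 MRC5_Mo libraries, 14, 12 and 11 in MRC5_coH69 and 74, 70 and 83 in MRC5_coH196. All libraries of MRC5_coH196 lay above all others of MRC5, and MRC5_Mo and MRC5_coH69 overlapped. In FPKM, EFNA3 rose from 0.290 ± 0.139 in MRC5_Mo to 2.60 ± 0.197 in MRC5_coH196. Its log2 fold change was 3.32 with an SE of 0.24 (adjusted p = 6.81e-12, edgeR), which placed it 77th from the top among the 12819 genes tested. At 6 to 13 counts the lower level was set by few reads, and leaving out each library in turn gave log2 fold changes of 3.13 to 3.78. The difference was smaller on the log2(FPKM + 1) scale, where low values are compressed, at 1.49. With 70 to 83 counts in MRC5_coH196, the measured level of EFNA3 was 3.79 to 4.33 CPM. If the whole rise of the 95 H196 marker genes in those libraries were RNA of H196 cells, it would come to 0.185% to 0.672% of their level in H196_Co, and that share of the EFNA3 level in H196_Co comes to 0.0292 to 0.106 CPM.

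EFNA1, the neighbouring A-type ephrin, stood at the limit of detection in fibroblasts. Its counts were 3, 5 and 1 in MRC5_Mo, 2, 2 and 2 in MRC5_coH69 and 6, 7 and 20 in MRC5_coH196. Every library of MRC5_coH196 was above every other MRC5 library, and replicate 3 of them held most of the counts. Because EFNA1 did not pass the filter, it has no value in the main fit. A fit with no filter on low counts, chosen after the counts were seen, gave a log2 fold change of 1.98 with an SE of 0.58 (adjusted p = 0.00263 over 16370 genes). The H196 marker genes had their lowest sum, 23.7 CPM, in that same replicate 3, in which EFNA1 was at 1.04 CPM.

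EFNB1 and EFNB2, both B-type ephrins, moved in opposite directions. EFNB1 (chrX:68829021-68842160) was at 22.06, 23.56 and 21.37 FPKM in MRC5_Mo, 22.22, 22.29 and 21.32 FPKM in MRC5_coH69 and 41.57, 38.35 and 40.97 FPKM in MRC5_coH196. The MRC5_coH196 libraries stood apart from the other 6. The log2 fold change against MRC5_Mo was 1.03 with an SE of 0.05 (adjusted p = 2.67e-15, edgeR). EFNB2 (chr13:106489745-106535662) was at 4.33, 4.53 and 4.83 FPKM in MRC5_Mo, 4.08, 3.46 and 3.99 FPKM in MRC5_coH69 and 1.44, 1.80 and 1.44 FPKM in MRC5_coH196. These 3 groups did not overlap. EFNB2 fell by 1.37 on the log2 scale with an SE of 0.09 (adjusted p = 1.2e-12, edgeR), the 201st lowest value among the genes tested. For comparison, EFNB2 was at 1.24 to 1.63 FPKM in the H196 libraries.

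Among the receptors, EPHA2 (chr1:16124337-16156104), the main EphA receptor of both lines, was at 30.61, 34.65 and 35.88 FPKM in MRC5_Mo and at 37.56, 36.14 and 37.05 FPKM in MRC5_coH196. The groups did not overlap, and the log2 fold change was 0.30 with an SE of 0.05 (adjusted p = 1.88e-05, edgeR). On FPKM scales that call was lost, at 0.13 and adjusted p values of 0.0536 and 0.0541 from limma. On those scales the median over all genes was itself shifted to -0.13 (pseudocount 1) or -0.18 (pseudocount 0.1) in this comparison, so that EPHA2 stood above the median gene on each of them. EPHB2 (chr1:22710770-22921500), the main EphB receptor of the fibroblasts, was at 43.19, 48.92 and 50.55 FPKM in MRC5_Mo and at 31.16, 31.07 and 32.87 FPKM in MRC5_coH196. It fell by 0.46 on the log2 scale with an SE of 0.05 (adjusted p = 3.73e-08, edgeR), and the groups did not overlap.

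EFNA4, EFNA5, EPHB3 and EPHB4 did not pass in MRC5_coH196 against MRC5_Mo, with log2 fold changes of 0.14, 0.28, -0.08 and -0.00. EFNA4 ranged from 3.69 to 5.73 FPKM over the 9 MRC5 libraries, EFNA5 from 0.68 to 1.33 FPKM and EPHB3 from 0.58 to 1.05 FPKM, and MRC5_coH196 overlapped MRC5_Mo for each of these 3 genes. MRC5_coH69 lay above MRC5_Mo for EFNA5, without overlap. EFNA4 thus had a log2 fold change of 0.14 with an SE of 0.15, while EFNA3, which starts 227 bases behind it, had 3.32. EPHB4 had the smallest error among these 4, at an SE of 0.05. Its value depended on the scaling, since limma on log2(FPKM + 1) and log2(FPKM + 0.1) gave -0.17 and -0.18 with adjusted p values of 0.00915 and 0.00887, close to the shift of the median gene on those scales.

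**Figure D2:**
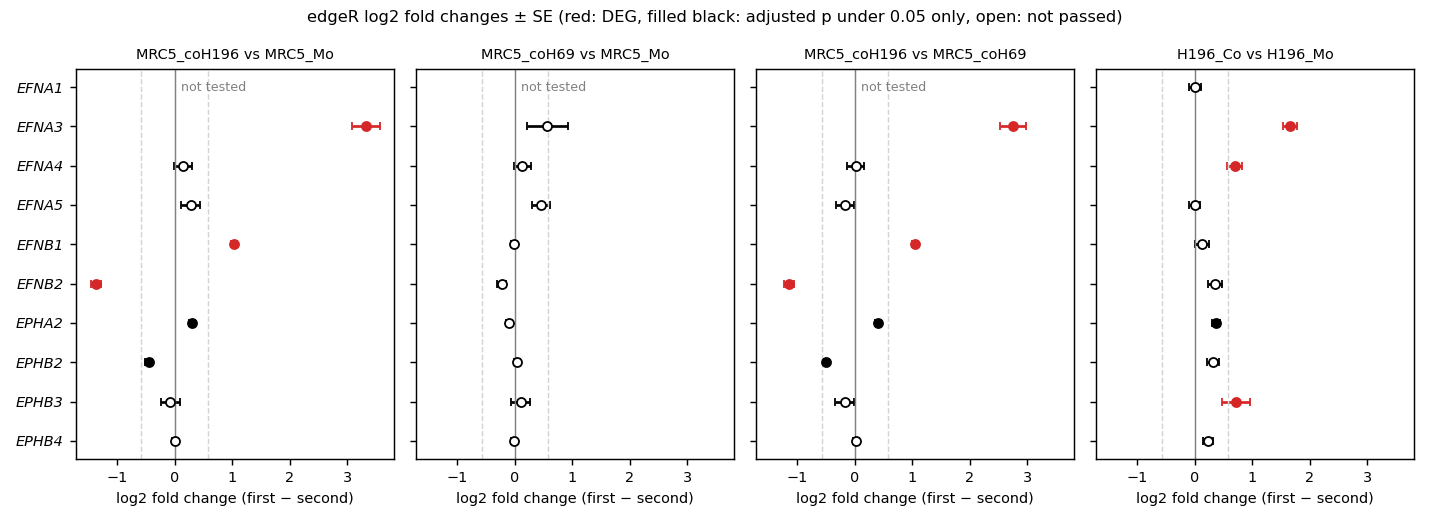
Log2 fold changes from edgeR (horizontal axis) of the 10 genes (vertical axis) in the 4 comparisons, with bars of ± 1 SE from 3 libraries per group and dashed lines at 0.58 in either direction. Red points are DEGs, filled black points passed on adjusted p alone and open points did not pass. EFNA3 is at 3.32 and EFNB2 at -1.37 in MRC5_coH196 against MRC5_Mo, no point is filled for MRC5_coH69 against MRC5_Mo, and all 3 red points of H196 lie to the right.

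Culture with H69 cells moved none of the 9 tested genes past the threshold. In MRC5_coH69 against MRC5_Mo, edgeR called 0 of 9, while 6.7% of all genes tested passed, 0.421% as DEGs with higher and 0.133% as DEGs with lower mRNA. At an unadjusted p under 0.05 there were 2 of 9, EFNA5 at a log2 fold change of 0.45 with an SE of 0.16 (adjusted p = 0.0859) and EFNB2 at -0.23 with an SE of 0.08 (adjusted p = 0.0875). limma also called 0 of the 9, and DESeq2 called 0 of the 8 to which it gave an adjusted p, with none for EFNA3. Leaving out 1 library brought EFNA5 past the threshold without the second MRC5_coH69 library, at 0.58 (adjusted p = 0.0488), and EPHA2 without the first MRC5_Mo library, at -0.17 (adjusted p = 0.0469). EFNA3, with 6 to 14 counts, was at 0.57 with an SE of 0.36 (adjusted p = 0.414), and this value ranged from 0.38 to 1.02 when 1 library was left out, the highest without the second MRC5_Mo library.

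Set directly against each other, the fibroblasts from both co-cultures differed most, among the 9 genes that passed the filter, in EFNA3, EFNB2 and EFNB1. This comparison uses the same MRC5_coH196 libraries as the one with MRC5_Mo and is not independent of it. In MRC5_coH196 against MRC5_coH69, EFNA3 was higher by a log2 fold change of 2.75 (SE 0.23, adjusted p = 6.36e-11) and EFNB1 by 1.04 (SE 0.05, adjusted p = 2.82e-15), and EFNB2 was lower, at -1.15 (SE 0.09, adjusted p = 7.43e-11). EFNA1, with 2 counts in each MRC5_coH69 library, was at 2.53 (SE 0.63, adjusted p = 0.000514) in the edgeR fit with no filter. That fit was chosen after the counts were seen, so its p-value is not independent support. Replicate 3 of MRC5_coH196, with 20 counts, held most of the EFNA1 counts of its group. EPHA2 also passed at 0.40 and EPHB2 at -0.50, below the limit for a DEG. These are 2 of 9 genes with higher and 1 of 9 with lower mRNA as DEGs, against 15.2% and 13.1% of all genes tested, and 5 of 9 that passed, against 72.3%. EPHB4 was at 0.02, a direction that turned to -0.13 and -0.14 on the FPKM scales.

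In H196 cells the question was how the tumour cells differed between culture with fibroblasts and culture alone. EFNA3, EFNA4 and EPHB3 were DEGs with higher mRNA in H196_Co, and EPHA2 also passed. EFNA3 was 3.14 times, EPHB3 1.65 times, EFNA4 1.62 times and EPHA2 1.29 times its level in H196_Mo. All 10 genes were tested, of which 3 were DEGs with higher mRNA and 0 with lower mRNA, against 3.26% and 0.601% of all 12806 genes tested. 4 of the 10 (40%) passed, against 19.8%. The genes were listed with earlier results of these data known, so these shares are a description and not independent support. The median log2 fold change of the 10 genes was 0.33 beside -0.00 over all genes, and 3 more, EFNB2, EPHB2 and EPHB4, had an unadjusted p under 0.05 and adjusted p values from 0.0510 to 0.0539.

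EFNA3 was at 2.98, 4.21 and 3.12 FPKM in H196_Mo and at 9.85, 10.64 and 10.32 FPKM in H196_Co. The second H196_Mo library was the highest of its group, and the groups were far apart. The log2 fold change was 1.65 with an SE of 0.13 (adjusted p = 1.15e-08, edgeR), the 22nd highest of the 12806 genes tested. EFNA3 alone among the 10 genes was a DEG both in MRC5_coH196 against MRC5_Mo and in H196_Co against H196_Mo, comparisons with no library in common. Taken separately, 17.2% and 3.26% of all genes tested were DEGs with higher mRNA in these comparisons. The share of all genes called in both is not given here, so the overlap is not read as particular to EFNA3. EFNA4 was at 6.70, 5.88 and 6.31 FPKM in H196_Mo and at 9.47, 8.38 and 10.84 FPKM in H196_Co. These groups did not overlap, and its log2 fold change was 0.70 with an SE of 0.13 (adjusted p = 0.000801, edgeR). EFNA1, the third gene of the cluster, ranged from 11.79 to 13.60 FPKM in H196_Mo and from 10.84 to 12.86 FPKM in H196_Co, with a log2 fold change of -0.00 and an SE of 0.10. In H196_Mo the order of the levels was EFNA1, EFNA4, EFNA3, and in H196_Co the mean of EFNA3 (10.3 FPKM) lay between those of EFNA1 (12.1 FPKM) and EFNA4 (9.56 FPKM).

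EPHA2 was at 50.85, 53.88 and 52.79 FPKM in H196_Mo and at 62.34, 64.77 and 66.27 FPKM in H196_Co, so the groups did not overlap. Its log2 fold change was 0.37 with an SE of 0.07 (adjusted p = 0.000638, edgeR). EPHB3 (chr3:184561785-184582408), an EphB receptor, had 15, 21 and 18 counts in H196_Mo and 28, 27 and 30 in H196_Co. The groups did not overlap, but the counts were low, and its log2 fold change of 0.72 with an SE of 0.24 passed narrowly (adjusted p = 0.0408, edgeR). It passed in none of the 6 fits that left out 1 library (adjusted p from 0.0552 to 0.134), and DESeq2 gave an adjusted p of 0.172.

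The remaining members among the 10 genes did not pass in H196 cells. EPHB4 (chr7:100802565-100827523), the main EphB receptor of these cells, was at 19.04, 22.47 and 20.39 FPKM in H196_Mo and at 20.79, 23.82 and 24.01 FPKM in H196_Co, which overlapped, with a log2 fold change of 0.23 and an SE of 0.08. EPHB2 had a log2 fold change of 0.31 (SE 0.11, adjusted p = 0.0532) and EFNB2 of 0.35 (SE 0.12, adjusted p = 0.0510), in both cases with groups that did not overlap in FPKM. Where only genes with 10 counts or more in each library were tested, all 3 fell under the threshold, at adjusted p values of 0.0486, 0.0491 and 0.0479. EFNB1 was at 0.12 with an SE of 0.12, and EFNA5 at -0.00 with an SE of 0.10.

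**Figure D3:**
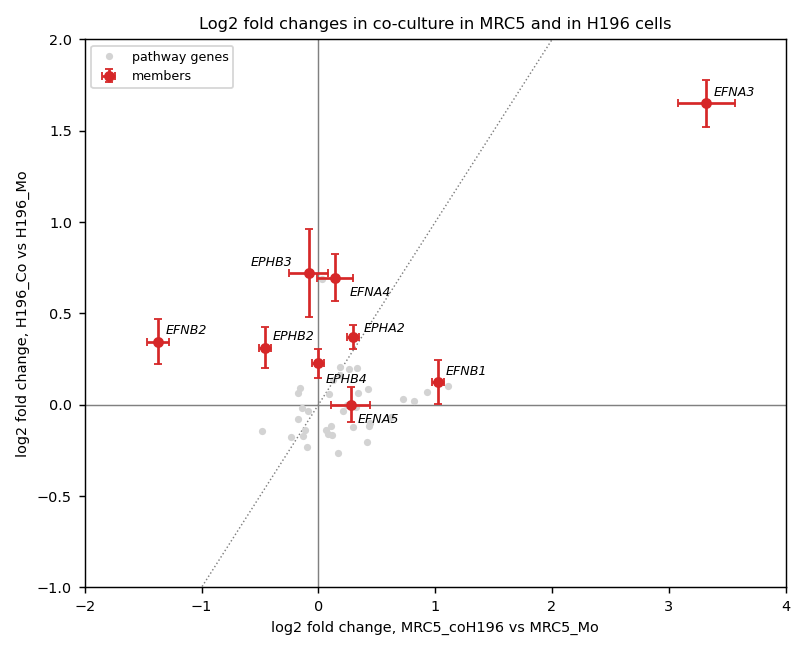
Log2 fold change in MRC5_coH196 against MRC5_Mo (horizontal axis) and in H196_Co against H196_Mo (vertical axis), from edgeR. Red points are the 9 genes of the family tested in both lines with bars of ± 1 SE, grey points are genes of Eph signalling, and the dotted line marks equal values. EFNA3 lies far to the upper right at 3.32 and 1.65, EPHA2 lies near the dotted line at 0.30 and 0.37, and EFNB2 lies to the left at -1.37 and 0.35.

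The responses of fibroblasts and tumour cells to each other were compared by the interaction of cell line and culture over all 15 libraries and 13585 genes. The difference is the log2 fold change of MRC5_coH196 against MRC5_Mo minus that of H196_Co against H196_Mo. Of the 9 genes that passed the filter in both lines, 7 passed (77.8%), against 51.2% of all genes tested. That 51.2% also covers genes which, like EFNA1, missed the filter in 1 of the lines, so these shares come from unlike sets. The response was higher in MRC5 cells for EFNA3 and EFNB1, by 1.65 and 0.88. It was lower in MRC5 cells for EFNB2, EPHB3, EPHB2, EFNA4 and EPHB4, with differences of -1.74, -0.83, -0.80, -0.58 and -0.25. EFNB2 had the smallest adjusted p of these, 2.48e-10, and an SE of 0.15. EFNA3 rose in both lines, and its difference between them had an SE of 0.31 (adjusted p = 5.39e-05) but came to 0.13 (adjusted p = 0.43) on the log2(FPKM + 1) scale, which compresses the low fibroblast levels. When each of the 12 libraries compared was left out in turn, EFNA3, EFNB1, EFNB2 and EPHB2 passed each time, EFNA4 and EPHB3 in 9 of 12 fits (adjusted p up to 0.122 and 0.0831) and EPHB4 in 5 of 12 (up to 0.181). Without the second MRC5_Mo library, 4 of the 9 passed. EFNA1 entered this test through its counts in H196 cells, having missed the filter in MRC5 cells, and is therefore given apart. Its difference of 1.97 (SE 0.55, adjusted p = 0.00373) rests on few fibroblast counts and fell to 1.28 (adjusted p = 0.0729) without replicate 3 of MRC5_coH196. EPHA2 rose in each line, with a difference of -0.10 (SE 0.08, adjusted p = 0.323), and EFNA5 had a difference of 0.25 (SE 0.19, adjusted p = 0.288).

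Summed in FPKM over each class, which takes in all genes of the family in the tables, the fibroblasts with H196 cells held more ligand and less EphB receptor mRNA. The A-type ephrins summed to 5.99 ± 0.869 FPKM (SD, n = 3) in MRC5_Mo, 6.88 ± 0.691 FPKM in MRC5_coH69 and 8.70 ± 1.32 FPKM in MRC5_coH196. The B-type ephrins summed to 27.8 ± 0.992, 26.8 ± 0.248 and 42.8 ± 1.63 FPKM in the same order. EphA receptors summed to 39.6 ± 2.71, 38.0 ± 0.921 and 41.2 ± 0.335 FPKM, and EphB receptors to 67.0 ± 4.31, 67.5 ± 2.61 and 48.9 ± 1.05 FPKM. In H196 cells the A-type ephrins summed to 26.5 ± 1.098 FPKM alone and 36.3 ± 1.91 FPKM in co-culture, and the EphA receptors to 57.98 ± 1.49 and 69.4 ± 2.34 FPKM. The B-type ephrins came to 6.07 ± 0.179 and 7.17 ± 0.0289 FPKM there, and the EphB receptors to 23.3 ± 1.69 and 26.2 ± 1.66 FPKM. These sums were not tested. In MRC5_coH196 against MRC5_Mo the median gene was itself shifted to -0.13 or -0.18 on the log2 FPKM scales (pseudocount 1 or 0.1). Falls there therefore read larger in FPKM than in the CPM of members, which is scaled by TMM factors, and rises smaller. These factors were 1.045 to 1.046 in MRC5_Mo and 0.916 to 0.941 in MRC5_coH196. EPHB4, for instance, was at 17.9 and 15.9 FPKM in MRC5_Mo and MRC5_coH196, but at 69.5 and 69.4 CPM with that scaling.

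The makeup of the classes moved with EFNA3 and EFNB2. EFNA3 held 4.70% ± 1.51 of the A-type ephrin FPKM in MRC5_Mo, 6.26% ± 1.07 in MRC5_coH69 and 30.3% ± 3.83 in MRC5_coH196, and EFNA4 held 79.5% ± 1.199, 76.9% ± 0.965 and 54.3% ± 4.75. In H196 cells EFNA3 held 12.9% ± 1.98 alone and 28.4% ± 2.29 in co-culture, and EFNA1 held 48.2% ± 1.71 and 33.3% ± 1.499. EFNB2 held 16.4% ± 1.27 of the B-type ephrin FPKM in MRC5_Mo and 3.66% ± 0.636 in MRC5_coH196, where EFNB1 held 94.2% ± 0.469. EPHA2 held 81.8% to 92.8% of the EphA FPKM in the means of the 5 groups. EPHB2 held 70.9% ± 1.26 of the EphB FPKM in MRC5_Mo and 64.9% ± 1.90 in MRC5_coH196, whereas EPHB4 held 88.6% ± 1.09 in H196_Mo and 87.1% ± 1.57 in H196_Co. Shares from CPM, which takes no account of gene length, put EFNA4 at 49.6% in MRC5_Mo and 33.5% in MRC5_coH196, and EFNB2 at 23.5% and 5.61%.

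**Figure D4:**
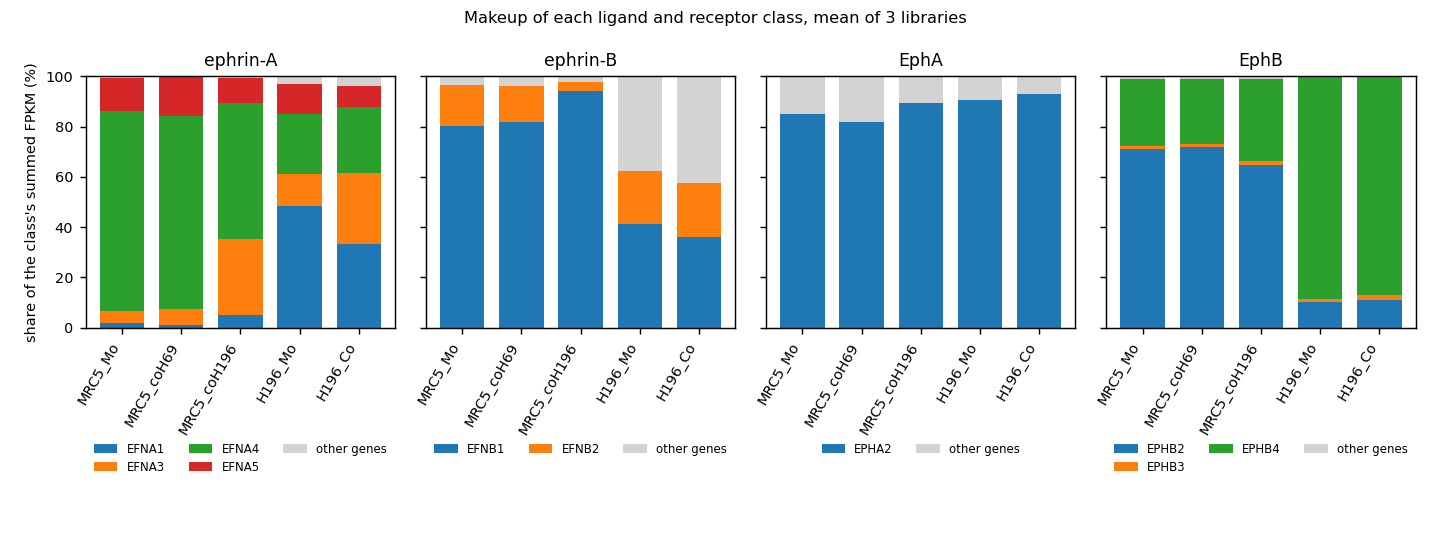
Share of each gene in the summed FPKM of its class (vertical axis, in percent, from 0 to 100) in the 5 groups (horizontal axis), as the mean of 3 libraries without error bars. Each panel is 1 class, and grey is the sum of its other genes. EFNA3 takes 30.3% of the A-type ephrin FPKM in MRC5_coH196 and 4.70% in MRC5_Mo, and the leading EphB receptor is EPHB2 in MRC5 cells and EPHB4 in H196 cells.

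The other 12 genes of the family were mostly low. Among MRC5 libraries 6 of them were tested, of which 3 passed in MRC5_coH196 against MRC5_Mo (50%, against 74.3% of all genes), and among those with at least 1 CPM on average EPHA4, an EphA receptor, passed at a log2 fold change of -0.31 (adjusted p = 0.000135). EPHA4 was the only family gene that passed in MRC5_coH69 against MRC5_Mo, where it rose by 0.28 (adjusted p = 0.00387). Among H196 libraries 8 were tested, of which 4 passed (50%, against 19.8% of all genes). EFNA2, an A-type ephrin, rose by 0.79 (adjusted p = 0.00613), EFNB3, a B-type ephrin, by 0.49 (adjusted p = 0.00651) and EPHA10 by 0.38 (adjusted p = 0.0352), and EPHA5 fell by 0.51 on the log2 scale (adjusted p = 0.00097).

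A list of 44 genes that act with Eph receptors and ephrins was read beside them. It holds proteases such as ADAM10, which cuts ephrins, kinases and adaptors at the receptors, further signalling proteins and partners of the ephrin-B tail. In MRC5_coH196 against MRC5_Mo, 28 of the 38 genes tested passed (73.7%), 22 with higher and 6 with lower mRNA, which is close to the 74.3% of all genes, and their median log2 fold change was 0.18. The largest rises that passed were those of FYN, a Src-family kinase (log2 fold change 1.11, SE 0.06), ABL2, an Abl-family kinase (0.93, SE 0.05), and CHN1, which acts downstream of EphA4 (0.82, SE 0.06). In MRC5_coH69 against MRC5_Mo edgeR called 0 of the 38, where 6.7% of all genes passed, and 4 had an unadjusted p under 0.05. In H196_Co against H196_Mo, 4 of 40 passed (10%, against 19.8% of all genes), namely MMP14, a membrane protease, at 0.69 (SE 0.07), NGEF, also called ephexin, at 0.28 (SE 0.08), PTPN13, a phosphatase that binds ephrin-B, at -0.27 (SE 0.07), and CRK, an adaptor, at -0.23 (SE 0.07).

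For the 3 members with the largest changes in MRC5_coH196 among those tested in both lines, the nearest genes were looked for by the Euclidean distance over the log2 fold changes of MRC5_coH196 and MRC5_coH69 against MRC5_Mo and of H196_Co against H196_Mo, among 9576 genes. These 9576 genes had a mean of at least 5 CPM in both lines. EFNA3 itself was lower in MRC5 cells, with group means of 0.426 to 4.32 CPM. Both MRC5 comparisons share the MRC5_Mo libraries. Nearest to EFNA3 were PPFIA4 (distance 0.586), BHLHE41 (0.622) and MXI1 (0.660), which had log2 fold changes of 3.46, 3.08 and 3.46 in MRC5_coH196 and of 1.15, 1.34 and 1.07 in H196_Co. EFNB1 had much closer neighbours, DSG2 (0.0445), ZNF550 (0.0481) and NPIPB2 (0.0564), and so did EFNB2, with BOP1 (0.130), DUS3L (0.130) and TRIM16 (0.135).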

How the data were processed

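mRNA libraries of MRC5 and H196 cells (5 groups of 3) were sequenced by the authors, who cleaned reads with SOAPnuke and mapped them to the genome (HISAT, GRCh38.p13) and to gene sequences (Bowtie2). Per the labels, HISAT2 2.1.0, Bowtie2 2.3.4.3 and RSEM 1.3.1 were used. The expected counts deposited by the authors are not normalized (93.68% of the MRC5 and 92.12% of the H196 values are whole). The deposited FPKM values are the authors' levels per gene length and library. 18 and 12 further per-library columns (TPM and normalized counts) and the authors' own fold changes and p-values were not used.

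Rounded expected counts were tested with edgeR 4.0.16 under R 4.3.3 (TMM factors 0.916 to 1.05, filterByExpr, quasi-likelihood F test, two-sided), in 1 model of the 9 MRC5 libraries, 1 of the 6 H196 libraries and 1 of all 15 for the interaction. SE was obtained as the log2 fold change over the root of its F statistic. CPM of members is scaled by TMM, and that of marker genes and partner RNA by library totals. Scripts were tested on simulated data. With 3 libraries per group an exact permutation test of 1 gene cannot go below p = 0.1.

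The members and gene lists were chosen with earlier results of these data known. Named were all members, and family genes with at least 1 CPM. The 3 nearest genes of the 3 most changed members were named too, with a floor of 5 CPM for the nearest genes only. Among pathway genes with an adjusted p under 0.05, the 3 largest rises and falls were chosen. The falls among pathway genes in MRC5_coH196 are not reported by gene here. Alternatives were DESeq2 1.42.0, its size factors, limma 3.58.1 on log2 FPKM with a pseudocount of 1 or 0.1, changed filters and fold limits, a replicate block, only the groups compared, CPM shares and each library left out. Protein sequences were not used here.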

Additional observations from a re-analysis of the deposited data

Results flagged for a closer look

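For 7 of the 9 genes that passed the filter in both lines, the response to co-culture differed between MRC5 and H196 cells by the interaction test of edgeR (adjusted p under 0.05 over 13585 genes, all 15 libraries). Of all genes tested 51.2% passed, a set that also covers genes which missed the filter in 1 of the lines. The log2 fold change of MRC5_coH196 against MRC5_Mo minus that of H196_Co against H196_Mo was 1.65 for EFNA3 and 0.88 for EFNB1. It was -1.74 for EFNB2, -0.83 for EPHB3, -0.80 for EPHB2, -0.58 for EFNA4 and -0.25 for EPHB4. EFNB2 and EPHB2 fell in MRC5 cells, while their values in H196 cells, 0.35 and 0.31, did not pass on their own. The genes with the widest margins were EFNB2 (adjusted p = 2.48e-10) and EFNB1 (adjusted p = 7.7e-07), and those with the narrowest were EPHB4 (adjusted p = 0.0255) and EPHB3 (adjusted p = 0.0212). EPHB4 kept its call in 5 of 12 fits without 1 library, and EFNA4 and EPHB3 in 9 of 12. EFNA1 also passed, at 1.97, but it was tested through its counts in H196 cells alone, and its value was 1.28 (adjusted p = 0.0729) without replicate 3 of MRC5_coH196.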

How the results depend on the processing

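Depth limits EFNA1 and EFNA3 in MRC5 cells and EPHB3 in H196 cells, which had under 31 counts in at least 1 group. The numbers of DEGs among the members, 3 in MRC5_coH196 against MRC5_Mo and against MRC5_coH69, 3 in H196_Co and 0 in MRC5_coH69 against MRC5_Mo, kept within 1.5 times under 35 of 39 other settings and in all 24 fits without 1 library. By this measure a change from 3 to 2 counts as kept. In H196_Co the number was 2 in each of the 6 fits without 1 library, where EPHB3 lost its call, and 2 with DESeq2. The MRC5 comparisons kept their numbers exactly in the fits without 1 library. With no limit on the fold change the numbers were 5 of 9 in MRC5_coH196 against MRC5_Mo and 5 of 9 against MRC5_coH69. Of all genes tested, 74.3% and 72.3% passed there. In H196_Co the count was 1 both with limma on log2(FPKM + 1) and with a limit of 1 on the absolute log2 fold change. EPHB4 in MRC5_coH196 against MRC5_coH69 reversed to -0.13 on log2(FPKM + 1) and -0.14 on log2(FPKM + 0.1), where the median of all genes moved to -0.14 and -0.18. The number of members whose response differed between cell lines, 8 with EFNA1, ranged from 5 to 8 when 1 library was left out. In the main fit, 51.2% of all genes tested differed. Single log2 fold changes kept direction and side of the threshold in 268 of 282 other settings and in 211 of 222 fits without 1 library, and the differences between lines in 48 of 50 and 106 of 120. Where the calls changed, the cause was not tested.

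CPM, which does not correct for gene length, moved 25 of 40 shares beyond 1 SD. In the order MRC5_Mo, MRC5_coH69, MRC5_coH196, H196_Mo and H196_Co, EFNA4 held 49.6%, 44.9%, 33.5%, 13.3% and 15.7% of the A-type ephrins, EFNB1 held 73.6%, 75.7%, 92.4%, 37.1% and 32.5% and EFNB2 23.5%, 20.8%, 5.61%, 30.1% and 30.6% of the B-type ephrins, and EPHA2 held 77.5%, 72.9%, 83.7%, 84.4% and 88.9% of the EphA receptors. EFNA1 held 0.965% in MRC5_coH69, 36.0% in H196_Mo and 26.3% in H196_Co, and in MRC5_coH69 EPHB2 held 72.9% and EPHB4 24.9% of the EphB receptors.

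No pairing of the libraries by replicate number was seen. Same-numbered libraries had correlations of -0.18 to 0.08, and 2 of 12 correlated best with their own number. These correlations use deviations from means of 3 libraries, so they cannot exclude a pairing. With the replicate block the number of DEGs among the members was 3, 0 and 3 in the MRC5 comparisons and 2 in H196_Co, where EPHB3 had an adjusted p of 0.0627 (edgeR). Over all genes the block gave 4088, 70, 3612 and 471 DEGs in the same order. Of the 9 genes that passed the filter in both lines, 7 differed between the lines with the block. In the main fit 51.2% of all genes tested differed.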
